A study of Mus musculus with 50 samples.

Results

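Hemogenic endothelial cells are endothelial cells that give rise to blood, and before they leave the vessel wall they are held to their neighbours by the same junctions as other endothelial cells. In an adherens junction the cadherin VE-cadherin binds its copy on the next cell, and β-catenin ties its tail to the actin cytoskeleton. In a tight junction claudins and junctional adhesion molecules (JAMs) meet between the cells, and the scaffold protein ZO-1 holds them from the inside. Further adhesion molecules of the immunoglobulin family and the sialomucin CD34 cover the same surface. During endothelial-to-hematopoietic transition cells lose these contacts, and Runx1 is the transcription factor known to be required for that step. The 10 genes described here were taken by name as genes of endothelial junctions and adhesion: Pecam1, Cdh5, Esam, Cldn5, Icam2, Jam3, F11r, Tjp1, Ctnnb1 and Cd34. A row was found for 10 of the 10 among the 11879 rows of the expression table.

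The data were 50 single mouse cells of 1 group, named iRunx1-iHECs (induced hemogenic endothelial cells). They were derived in culture from embryonic stem cells of C57BL/6 background, in which a cassette that doxycycline switches on (rtTA-TRE-Runx1-HygroR) had been placed in the Rosa26 locus. Doxycycline was present before the cells were sorted as CD31+CD41lowCD45-c-kit+CD201high. All 50 cells carried the cassette, so there was no group without it, and values of Runx1 per gene do not separate the cassette from the endogenous gene. Whether the line was 1 clone and from how many cultures the cells came was not given in the sources used here, so the cells are 1 sample without a replicate and no significance test was made. Pecam1 encodes CD31, on which the cells were sorted, so that its presence in the cells was set by the sort.

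Expression was given as TPM, a transcript level scaled by gene length and by the total of the cell. This scaling does not remove differences between genes in capture or amplification, so that levels of different genes compare only roughly. Between 2400 and 8615 genes per cell were above TPM 1, the level at which a gene was counted as expressed, and the lowest cell, cell 4-6, stood apart from the next at 4326 genes. The endothelial label was met by the markers, since 12 of 12 genes of an endothelial list passed TPM 1 in 50% of the cells or more, as did 53.2% of all rows. Of other cell types, the epithelial genes Krt8 and Krt18 were listed at 0 in every cell, and the 4 epithelial rows summed to between 0 and 44.8 TPM per cell. The 6 mesenchymal rows summed to between 0 and 26.2 TPM. The 6 erythroid rows had a median sum of 0 and a highest sum of 1714 TPM. Of 7 myeloid rows (up to 1801 TPM) 1 passed TPM 1 in 50% of the cells or more, Fcgr3 in 33 cells, and of 6 megakaryocyte rows (up to 554 TPM) 1 did, Itgb3 in 46 cells. Of 14 blood genes 5 passed that share (Lcp1, Laptm5, Fcer1g, Itga2b and Tyrobp), while Ptprc, Myb and Spn were listed at 0 in all 50. The 14 blood rows had a median sum of 1108 TPM and a highest sum of 7467 TPM. Ptprc encodes CD45 and Itga2b encodes CD41, which were both part of the sort.

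Sequences before start sites of the members are shown first because ETS factors are known regulators of endothelial genes and Runx1 is the factor set beside the members. RefSeq windows (build GRCm38.p6) were held for 5 of the 10 genes, namely F11r, Cd34, Tjp1, Ctnnb1 (2 start sites) and Cldn5, and 250 bases before each start were read. The windows of Tjp1 and Ctnnb1 precede starts inside the annotated span of the gene, and 178 bases of 1 Ctnnb1 window, 34 of the F11r window and 2 of the Cd34 window are annotated exon. Capitals mark the ETS core GGAA or its complement TTCC on the printed strand. The window of Cd34, a gene of high level, lies at chr1:194938571-194938820 on the plus strand, that of Tjp1, the gene of lowest median, at chr7:65371245-65371494 on the minus strand, and that of Cldn5 at chr16:18776597-18776846 on the plus strand.
Cd34: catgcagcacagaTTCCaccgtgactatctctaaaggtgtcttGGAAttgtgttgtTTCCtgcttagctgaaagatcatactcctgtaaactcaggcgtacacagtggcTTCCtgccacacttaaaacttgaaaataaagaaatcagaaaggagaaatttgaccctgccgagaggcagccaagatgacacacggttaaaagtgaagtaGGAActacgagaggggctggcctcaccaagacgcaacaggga
Tjp1: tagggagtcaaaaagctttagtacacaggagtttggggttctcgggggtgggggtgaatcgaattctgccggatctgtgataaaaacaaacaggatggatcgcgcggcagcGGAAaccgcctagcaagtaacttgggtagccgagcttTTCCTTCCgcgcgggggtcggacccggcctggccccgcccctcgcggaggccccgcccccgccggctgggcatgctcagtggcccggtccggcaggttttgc
Cldn5: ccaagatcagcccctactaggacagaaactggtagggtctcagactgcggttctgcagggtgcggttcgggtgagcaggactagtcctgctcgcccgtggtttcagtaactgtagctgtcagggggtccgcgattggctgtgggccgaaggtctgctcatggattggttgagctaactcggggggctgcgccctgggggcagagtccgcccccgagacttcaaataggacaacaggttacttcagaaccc

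The Cd34 window held 5 matches of the ETS core, a number that 18.0% of all 32851 windows reached or passed. Tjp1 held 3, which was also the median of all windows, and Cldn5 held 0, while 93.4% of all windows held at least 1. The RUNX core TGTGGT, searched on both strands, was found in 0 of the 6 member windows and in 14.0% of all windows. Other forms of the RUNX site, such as TGCGGT, which the printed Cldn5 window holds, were not searched. A match of these letters is a description of the window only. No window was held for Pecam1, Cdh5, Esam, Icam2 and Jam3.

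The first question was how widely and at what level each gene was expressed. Every one of the 50 cells passed TPM 1 for 6 of the 10 genes (exact Clopper-Pearson interval at 95%, which covers counting error over cells only, 92.9% to 100%): Pecam1, Cdh5, Esam, Icam2, Ctnnb1 and Cd34. Over all 11879 rows, 7.15% reached 50 of 50 cells. F11r was above TPM 1 in 49 cells, Cldn5 in 48, Tjp1 in 46 and Jam3 in 34. All 10 were above TPM 1 together in 32 cells (64%, 49.2% to 77.1%), 9 in 14 cells, 8 in 3 cells and 7 in 1 cell. Jam3 was the missing gene in 12 of the 14 cells with 9. The 10 genes together made up a median of 4220 TPM per cell, with a highest sum of 8149 TPM. The lowest sum, 552 TPM, was that of cell 4-6, and the next lowest was 2147 TPM.

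Of the adherens junction genes, Cdh5 (VE-cadherin, GRCm38 chromosome 8, 104101625 to 104144511, plus strand) ran from 19.8 TPM in cell 3-14 over a median of 140 to 1168 TPM in cell 4-3. The second highest cell had 563 TPM, so that the highest lay well above the others, and 17 cells were below 100 TPM. Ctnnb1 (β-catenin, which also carries Wnt signals to the nucleus, chromosome 9, 120929216 to 120960507, plus strand) ran from 1.47 over a median of 592 to 1471 TPM. Of its exon bases, 14.6% are shared with Ulk4 on the opposite strand. Most cells lay close together, with quartiles of 408 and 714 TPM. Cells 1-9 and 2-15 stood apart at 1.47 and 2.36 TPM, while Cdh5 was at 151 and 563 TPM in these cells. The mRNA of β-catenin was above that of VE-cadherin in 47 of 50 cells (94%, 83.5% to 98.7%).

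Among the tight junction genes, Cldn5 (claudin-5, the main claudin of endothelium, chromosome 16, 18776847 to 18778262, plus strand) ran from 0.80 over a median of 484 to 2259 TPM. Cells 2-8 and 3-4 were at 0.80 and 0.85 TPM, and the next lowest was at 33.6 TPM. F11r (JAM-A, chromosome 1, 171437535 to 171464603, plus strand) ran from 0.55 over a median of 334 to 1049 TPM, and its lowest value was that of cell 4-6, followed by 56.4 TPM. Jam3 (JAM-C, chromosome 9, 27097384 to 27155421, minus strand) divided the cells, with 11 listed at 0, 5 above 0 and up to TPM 1, and 34 above. Its median was 41.6 TPM and its highest value 296 TPM. Jam3 was above TPM 1 in 68% of all cells, and in 74.4% when cells with fewer than 5000 genes were left out. Of the exon bases of Jam3, 36.2% are shared with Gm48796 on the opposite strand, and whether reads were assigned by strand was not given. Tjp1 (ZO-1, chromosome 7, 65296165 to 65527781, minus strand) was the lowest gene at a median of 23.2 TPM, with values from 0.17 to 91.6 TPM. F11r was above Jam3 in 47 cells, and Cldn5 was above Tjp1 in 48.

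The remaining genes act at the cell surface. Esam, an immunoglobulin-family adhesion molecule of endothelial tight junctions (chromosome 9, 37528078 to 37538319, plus strand), ran from 3.304 over a median of 516 to 2225 TPM. Pecam1 (chromosome 11, 106654217 to 106750628, minus strand) ran from 50.9 over 326 to 1319 TPM. Icam2, a ligand of leukocyte integrins (chromosome 11, 106377656 to 106388075, minus strand), ran from 2.91 over 460 to 2209 TPM. Cd34, which was not part of the sort, had the highest median of the 10 genes, from 3.05 over 628 to 1992 TPM (chromosome 1, 194938819 to 194961279, plus strand). The lowest cell of each of these 4 genes was cell 4-6, and the second lowest values were 91.0, 80.6, 66.1 and 203 TPM. That cell was also below the lower quartile for Ctnnb1 (209 TPM) and Cldn5 (110 TPM), while its 172 TPM of Cdh5 lay above the median of that gene.

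**Figure D1:**
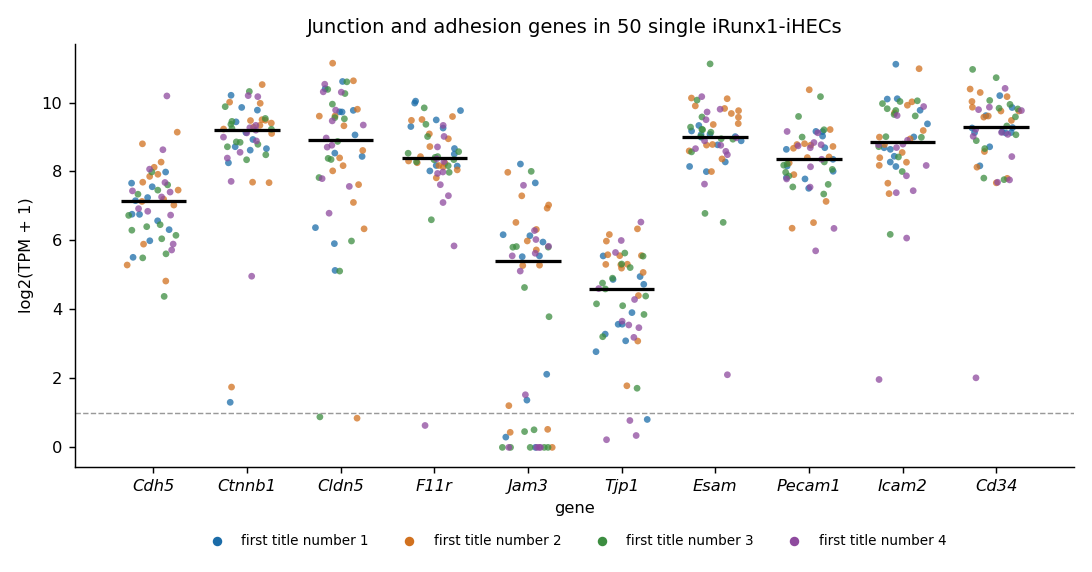
Level of each gene as log2(TPM + 1) in 50 single iRunx1-iHECs, 1 point per cell coloured by the first number of its title, with a bar at the median and a dashed line at TPM 1. Jam3 has 16 cells at or below the line and Tjp1 has 4, while single cells lie far below the rest for Esam, Icam2, Cd34 and F11r.

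The order of medians was Cd34, Ctnnb1, Esam, Cldn5, Icam2, F11r, Pecam1, Cdh5, Jam3 and Tjp1. Neighbours were compared within the same cell. Cd34 was above Ctnnb1 in 29 cells, Ctnnb1 above Esam in 23, Esam above Cldn5 in 23 and Cldn5 above Icam2 in 26 of 50, so that the order of these neighbours was reversed in many cells. F11r was above Pecam1 in 29 cells and Jam3 above Tjp1 in 25. Icam2 was above F11r in 35 cells (70%, 55.4% to 82.1%), Pecam1 above Cdh5 in 43 (86%, 73.3% to 94.2%) and Cdh5 above Jam3 in 44 (88%, 75.7% to 95.5%). These counts describe the cells of 1 sample, and levels that are not neighbours in the order were not all compared.

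The spread over cells differed between the genes at like levels. The standard deviation (SD) of log2(TPM + 1) was 0.91 for Pecam1 and 1.12 for Cdh5, and 26.4% and 10.7% of genes with a mean within 0.5 of theirs had a lower SD. For Tjp1 the SD was 1.56, and 3.54% of genes at its level had a lower one. Cldn5 had an SD of 2.2, above that of 98.9% of genes at its level. Its quartiles, 222 and 877 TPM, were 3.95-fold apart. Ctnnb1 had an SD of 1.74, above that of 93.0% of genes at its level, but its quartiles were 1.75-fold apart, with cells 1-9 and 2-15 far below them. Jam3, Cd34, Icam2, Esam and F11r were above 88.9%, 83.8%, 83.5%, 74.6% and 71.5% of genes at their level. The lowest cell of Cd34, Icam2, Esam and F11r was cell 4-6, and without it their SD went from 1.32 to 0.84, from 1.43 to 1.05, from 1.27 to 0.82 and from 1.39 to 0.84. They were then above 61.5%, 73.7%, 50.7% and 34.2% of genes at their level. Cells were also split by the first number of their title (1 to 4, with 11, 14, 13 and 12 cells), whose meaning the labels do not give. Across these numbers the median of Jam3 ran from 0.42 to 57.1 TPM and its share of cells from 46.2% to 81.8%. The median of Tjp1 ran from 10.9 to 38.6 TPM and its share from 75% to 100%. Medians ran from 248.7 to 611.5 TPM for F11r, from 350 to 781 TPM for Icam2 and from 83.4 to 190 TPM for Cdh5. That of Pecam1 ran from 289 to 375 TPM.

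The next question was whether these genes fall as Runx1 rises. Runx1 itself ran from 0.16 over a median of 132 to 913 TPM. Spearman's rho over the 50 cells was used as a description, since the cells share their library between both genes and are not replicates. The rho was negative for 6 of 10 genes, while it was negative for 32.1% of the 9103 genes tested, those that passed TPM 1 in 20% of the cells or more. It was lowest for Cdh5 (-0.296), followed by Esam (-0.266), Ctnnb1 (-0.1996), Tjp1 (-0.194), Pecam1 (-0.188) and Icam2 (-0.179). Of the genes tested, 1.12% had a lower rho than Cdh5 and 1.91% a lower one than Esam. A rho of -0.2 or lower was found for 2 of the 10 genes (Ctnnb1 lay just outside this level) and for 4.38% of all genes tested. For the other 4 genes rho was weakly positive: Cldn5 (0.0949), F11r (0.0942), Jam3 (0.0734) and Cd34 (0.0587). The median over the 10 genes was -0.184, and over all tested genes it was 0.0713.

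The cells at both ends of the Runx1 range show how wide the scatter was. In the 5 cells with the lowest Runx1, all at or under 0.80 TPM, Cdh5 was between 44.6 and 445 TPM, and in the 5 cells with the highest Runx1, 584 TPM or more, it was between 51.8 and 151 TPM. Esam was between 198 and 1123 TPM in the former and between 254 and 644 TPM in the latter. Tjp1 was between 0.17 and 46.2 TPM at the low end and between 0.75 and 14.0 TPM at the high end. The ranges of all 3 genes overlapped. Of the 5 cells with the highest Runx1, 4 carried first title number 1, against 1 of the 5 with the lowest, so that the ends differ in title number too. Cd34 ranged from 596 to 1149 TPM at low Runx1 and from 286 to 1360 TPM at high Runx1.

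**Figure D2:**
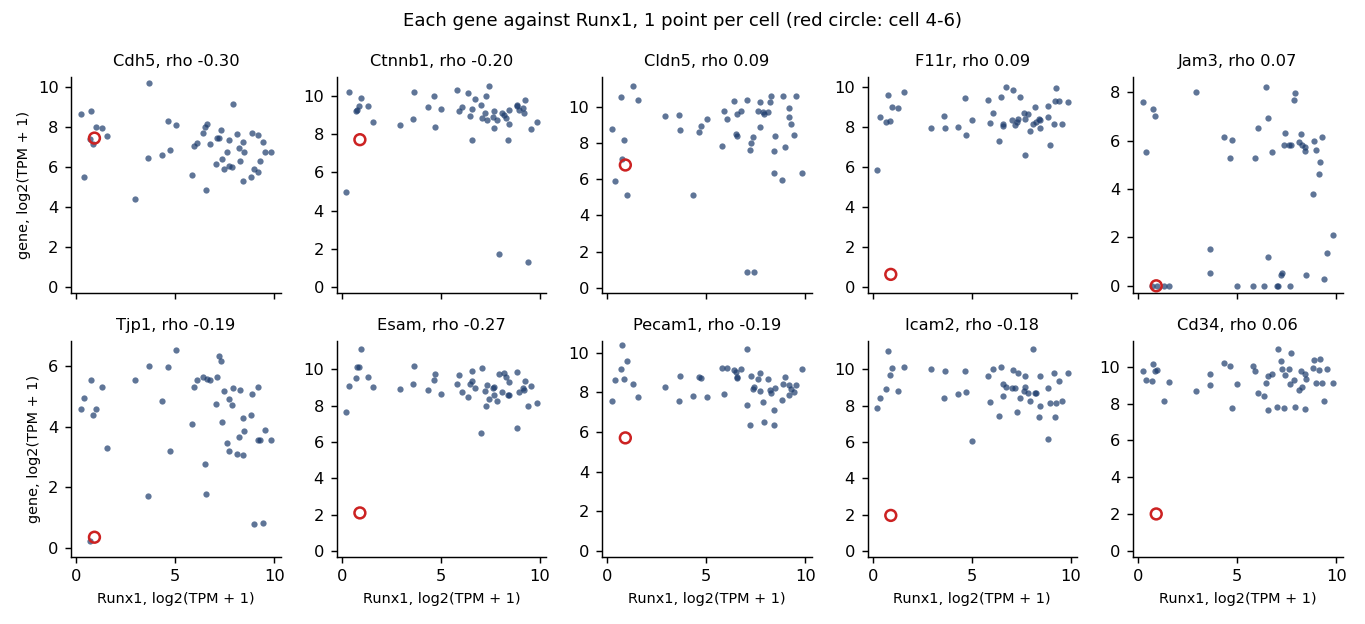
Each gene against Runx1, both as log2(TPM + 1), 1 point per cell of 50, with Spearman's rho above each panel and cell 4-6 circled. Cdh5 (rho -0.30) and Esam (rho -0.27) lean downwards with wide scatter, while Cldn5 and F11r (both rho 0.09) do not, and cell 4-6 lies low in most panels at a Runx1 level under 1 TPM.

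The number of genes above TPM 1 per cell had a rho of 0.278 with Runx1 and of -0.392 with Cdh5. Given that number, the partial rho with Runx1 was -0.212 for Cdh5, -0.281 for Esam, -0.248 for Ctnnb1 and -0.224 for Tjp1. A lower partial rho than that of Cdh5 was found for 7.09% of genes, and the 5th percentile of all tested genes was -0.240, which Esam and Ctnnb1 passed. Under the partial rho 8 of 10 genes were negative, but so were 45.6% of all tested genes. Within the 4 first title numbers the sign was mixed: Icam2 was negative within 4 of 4 (-0.587 to -0.0280), Pecam1, Esam, F11r and Ctnnb1 within 3, Cdh5, Jam3 and Tjp1 within 2, and Cldn5 and Cd34 within 1. For Cdh5 the values were 0.0727, -0.191, 0.0495 and -0.727, so that first title number 4 carried most of its rho, which was -0.130 without those cells. Esam was at -0.171 without first title number 2, Pecam1 at -0.0378 and Icam2 at -0.0726. Without number 1 Ctnnb1 was at -0.0741 and Tjp1 at -0.125, and without number 3 Icam2 was at -0.106. The median over the 10 genes was -0.0996, -0.0552, -0.121 and -0.193 with first title numbers 1, 2, 3 and 4 left out in turn. With number 4 left out 9 of 10 genes were negative, beside 44.2% of all tested genes. The mean of 12 genes of dividing cells had a rho of 0.310 with Runx1 and of -0.351 with Cdh5. The means of the myeloid, megakaryocyte, blood and erythroid genes had a rho of 0.283, 0.269, 0.208 and -0.197 with Runx1. Of the 12 endothelial genes 9 had a negative rho with Runx1 (median -0.0877), and their mean had a rho of -0.143. The part of these lists in the result was not tested.

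Cell 4-6, with 0.88 TPM of Runx1 and the fewest genes, moved these values. Without it rho was -0.290 for Cdh5, -0.329 for Esam, -0.256 for Tjp1, -0.249 for Ctnnb1, -0.246 for Pecam1 and -0.239 for Icam2, the median over the 10 genes was -0.243, and 36.9% of all tested genes were negative. When Pearson's r on log2(TPM + 1) was used over all 50 cells, r was -0.0108 for Esam and 0.0200 for Icam2 and the median over the 10 genes was 0.00754. With cell 4-6 left out r was -0.332 for Esam and -0.218 for Icam2, and the median was -0.120.

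**Figure D3:**
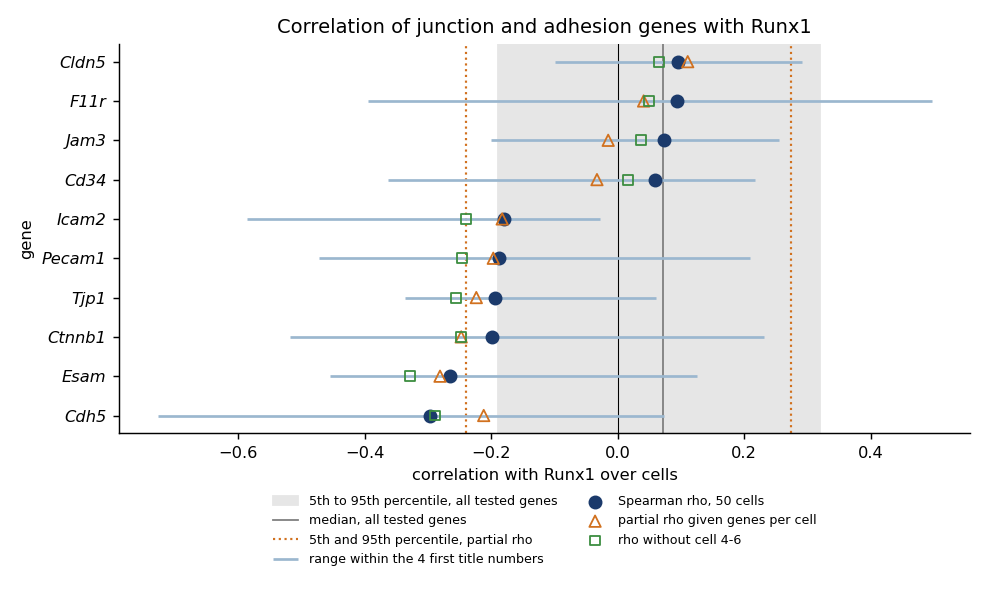
Correlation of each gene with Runx1 over cells, with Spearman's rho over 50 cells (filled circles), the partial rho given the number of genes per cell (triangles), rho without cell 4-6 (squares), and the range of rho within the 4 first title numbers (lines). The grey band spans the 5th to 95th percentile of 9103 tested genes (-0.189 to 0.319) around their median of 0.0713, and the circles of Cdh5, Esam, Ctnnb1 and Tjp1 lie past its lower edge. Dotted lines give the same percentiles of the partial rho (-0.240 and 0.273), the lower of which the triangles of Esam and Ctnnb1 pass.

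It was then asked whether the junction genes vary together from cell to cell. Of the 45 pairs, 36 (80%) had a positive rho, and the median was 0.120, while a member and the other tested genes had a median rho of 0.0325, with 57.9% positive. A rho of 0.3 or more was found in 9 pairs (20%), and in 4.84% of the pairs of a member with another gene. The highest values were those of Tjp1 with Ctnnb1 (0.465) and of Pecam1 with Icam2 (0.454), a pair that lies on chromosome 11 and was positive within 4 of 4 first title numbers, while the former was positive within 3 (-0.214 to 0.636). Pecam1 with Ctnnb1 (0.404) and Pecam1 with Esam (0.378) followed, and were also positive within 4 of 4. Cdh5 with Tjp1 had a rho of 0.383 but ran from -0.709 to 0.580 within the first title numbers. VE-cadherin and β-catenin, which bind each other as proteins, had a rho of 0.12. The lowest value was that of Cldn5 with Ctnnb1 (-0.186). Jam3 stood apart from the other 9 genes, with a median rho of -0.00729. Esam with Icam2 had a rho of 0.326 and ran from -0.373 to 0.629 within the first title numbers. Without cell 4-6 rho was 0.420 for Pecam1 with Icam2, 0.339 for Pecam1 with Esam and 0.284 for Esam with Icam2, and without cells of fewer than 5000 genes Pecam1 with Esam was at 0.229. The median over the 45 pairs was 0.0757 without cell 4-6 and 0.0744 without first title number 2.

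**Figure D4:**
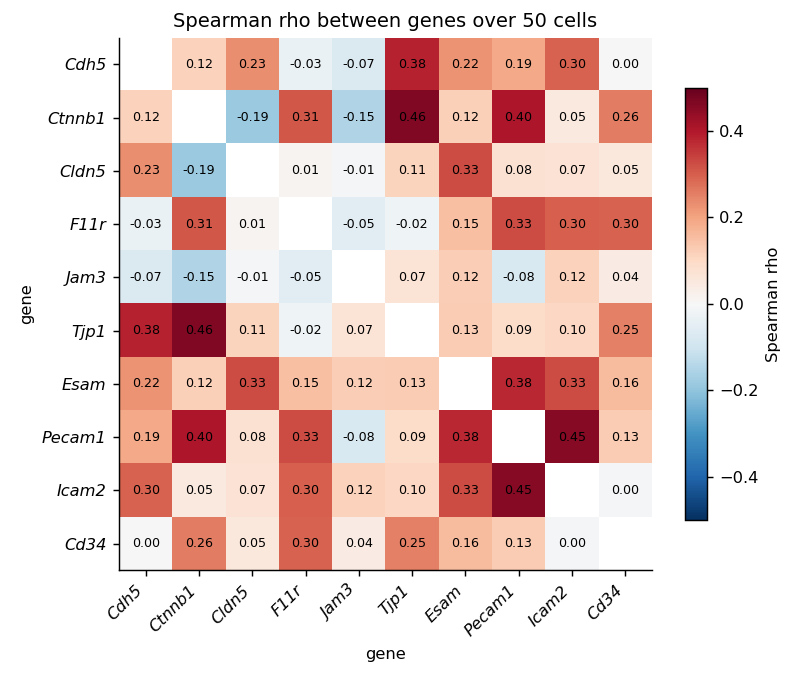
Spearman's rho over 50 cells for the 45 pairs of genes, coloured from blue (-0.5) to red (0.5). The pairs among Pecam1, Icam2 and Esam lie between 0.33 and 0.45, and Tjp1 with Ctnnb1 is highest at 0.46, while the row of Jam3 lies between -0.15 and 0.12.

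The other genes of the same families were set beside the members. Of 2 cadherin rows, Cdh5 was above TPM 1 in 50 cells and Cdh2 (N-cadherin) in 10. Of 7 claudin rows, Cldn5 was followed by Cldn12 in 16 cells, Cldn7 in 4 and Cldn22 in 3, and Cldn10 and Cldn15 were listed at 0 throughout. The claudin row named Cldn25, in 43 cells, bears a symbol that has been used for 2 different genes and is not read as a claudin here. Jam2 (JAM-B) was above TPM 1 in 4 cells, against 34 for Jam3. Icam1, the cytokine-inducible relative of Icam2, was above TPM 1 in 42 cells at a median of 78.4 TPM, and Icam2 was above it in 43 cells. Tjp3 (ZO-3) was above TPM 1 in 1 cell. Of the catenins, Ctnna1 (α-catenin, the link to actin) was in 48 cells at 110 TPM and Ctnnd1 (p120-catenin, which keeps VE-cadherin at the surface) in 39 at 27.9 TPM. The other rows were taken by a symbol that starts with Ctnn and are not all catenins. Ctnnbl1 was above TPM 1 in 44 cells and Ctnnbip1, an inhibitor of β-catenin, in 38, while Ctnnal1 and Ctnnd2 were in 2 each.

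Wider lists of junction genes were measured in the same cells. Of 14 adherens junction partners with a row, 11 passed TPM 1 in 50% of the cells or more, a share that 53.2% of all rows reached. These were led by the small GTPases Rap1b and Rap1a (619 and 191 TPM, 50 cells each), which tighten endothelial junctions, and held Jup (plakoglobin, 47 cells), Mllt4 (afadin, 48), Vcl (vinculin, 47) and Ptprb (VE-PTP, a phosphatase that binds VE-cadherin, 43), with Ptprm, Pvrl2 and Pkp4 beside the catenins named above. Of 15 tight junction partners, 3 reached 50% of cells: Cgnl1 (paracingulin, 46 cells), Amotl1 (38) and Prkci (25). Ocln (occludin) was above TPM 1 in 15 cells and Pard3 in 24. Of the connexins, Gja1 was in 42 cells, Gja4 in 33, Gjc1 in 11 and Gja5, known as arterial, in 1.

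Of 11 homing and adhesion genes with a row, 7 reached 50% of cells, beside 53.2% of all rows. These were Cd9 (817 TPM), Emcn (320), Cd47 (262), Icam1, Mcam, Cd93 and Podxl, the last a sialomucin related to CD34. Emcn is also one of the 12 endothelial genes above. P-selectin (Selp) was above TPM 1 in 3 cells. Of 8 actin linkers 6 reached 50% of cells, again beside 53.2% of all rows. Of the ERM proteins, which tie membrane proteins to actin, Msn was in 50 cells at 395 TPM, Rdx in 48 at 91.0 TPM and Ezr in 6. The others were Zyx, Actn4, Vasp and Actn1, at medians of 151, 168, 18.1 and 2.39 TPM. Against Runx1, 10 of 13 tested adherens junction partners had a negative rho (median -0.0892), as did 5 of 11 tight junction partners (median 0.0223), 4 of 9 homing genes, 1 of 3 connexins and 1 of 6 actin linkers, beside the 32.1% of all tested genes. Among these genes the lowest values were those of Mcam (-0.406) and Rdx (-0.364), followed by Ctnnd1 (-0.258), Gja1 (-0.238), Amotl1 (-0.221) and Cgnl1 (-0.219). The highest were those of Cldn12 (0.462), Cd47 (0.283), Pvrl3 (0.260), Madcam1 (0.245) and Msn (0.230).

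**Figure D5:**
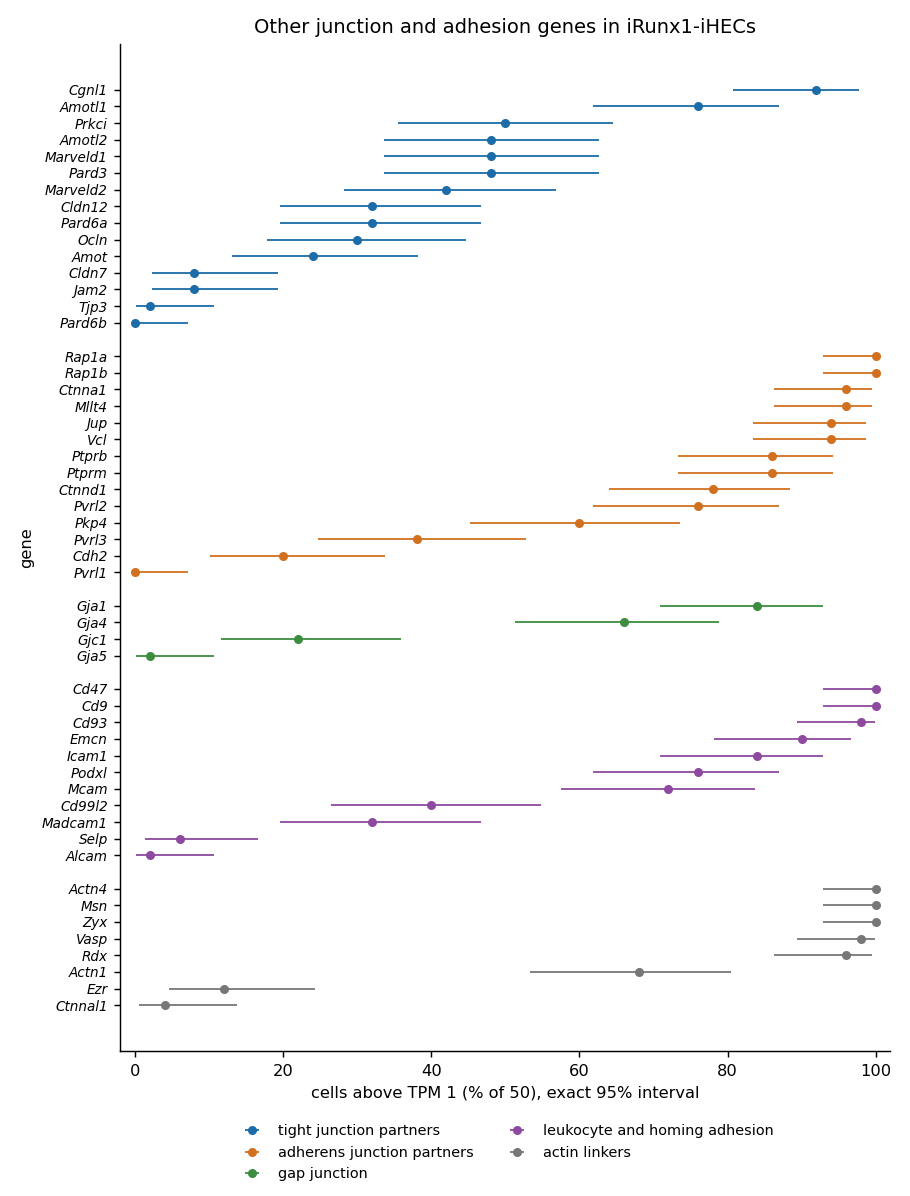
Share of 50 cells above TPM 1 for other junction and adhesion genes, with exact 95% intervals that cover counting error only, grouped by list. Most adherens junction partners lie above 50% of cells (11 of 14), whereas 3 of 15 tight junction partners reach that share. Of all rows, 53.2% reach it.

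The genes with the most similar pattern were listed for the mean log2(TPM + 1) of the 10 members and for each member, among the tested genes and over the 50 cells. With the mean, rho was highest for Myo1c (0.656), Copa (0.624), Hoxa13 (0.570), Klhl36 (0.568) and Sparc (0.568), followed by Ubqln1, Atxn7l1, Zfp800, Copb1 and Lgals3bp (0.525). The closest to Pecam1 were Litaf (0.614), Cav1 (0.593, caveolin-1) and Tmem100 (0.591). Hoxa13 and Tmem100 were each above TPM 1 in 18 cells, at a median of 0 TPM. Those closest to Esam were Trp53i11 (0.658), Sipa1 (0.617) and Nos3 (0.580, the endothelial nitric oxide synthase). For Cdh5 they were Shank3 (0.580), Gpr137 (0.567) and Gng5 (0.528), and Gng5 was also closest to Tjp1 (0.587), with Ccnl2 (0.567) also near. Icam2 was closest to Orai1 (0.722) and Fkbp1a (0.625), and Cldn5 to Igfbp4 (0.566), Grrp1 (0.501) and Rrbp1 (0.492). Ctnnb1 was closest to Prep (0.629), Ets1 (0.560) and Itgb1 (0.536, the β1 integrin). F11r was closest to Ankrd54 (0.558), Sqstm1 (0.550) and Ccm2 (0.549), Jam3 to Fxr1 (0.657), Rfc1 (0.588) and Ddhd2 (0.546), and Cd34 to Pex5 (0.659), Numb (0.605) and Riok3 (0.595).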

How the data were processed

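Single sorted cells had been amplified with a whole-transcriptome kit and sequenced without named molecular identifiers. The authors aligned reads to mm10 with HISAT2 (2.1.0) and estimated expression with StringTie (1.3.4), and the deposited values are TPM per gene and cell. The 11879 rows summed to between 94.3% and 97.1% of the full TPM total per cell. Sequencing depth cannot be read from TPM and is unknown here, and a value of 0 is only listed at 0. How rows were selected was not given in the sources used here.

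The members and gene lists were chosen with earlier results of these data known. Named genes were the members, Runx1, rows of their families, list genes past TPM 1 in 50% of the cells or more, the 3 genes closest to each member and 10 to their mean, and the 5 genes at each end of the rho with Runx1. Other names (Ocln, Pard3, Gjc1, Gja5, Selp, Ezr, Cdh2, Ctnnal1, Ctnnd2, Pvrl3, Madcam1) were chosen after their values were seen, and a few genes are not reported here. Spearman's rho and partial rho (scipy 1.17.1, Python 3.11.15) were tested on simulated data. All 50 cells formed 1 group, and no cell was left out. Positions are from GENCODE M21 (GRCm38), and upstream windows from RefSeq (GRCm38.p6). Alternatives were TPM above 0, 5 or 10, title numbers or cells with fewer than 5000 genes left out, rescaling without 84 ribosomal protein rows, and other correlations.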

Additional observations from a re-analysis of the deposited data

How the results depend on the processing

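The median share of cells over the 10 genes was 98% at TPM above 5 and above 10 and 100% under each other setting. A cell held a median of 9 of the genes at TPM above 10, in place of 10. Counts of genes with a negative correlation with Runx1 were 6 to 9 with single first title numbers left out, 8 without cells of fewer than 5000 genes, 6 after rescaling, 5 with Pearson's r on log2(TPM + 1), 7 with that r without cell 4-6 and 3 with r on log2(TPM + 0.1). The negative share over all tested genes was, in this order, 28.5% to 44.2%, 42.9%, 32.1%, 26.6%, 33.98% and 24.7%. The median correlation with Runx1 was -0.193 to -0.0552 with single first title numbers left out, 0.00754 with r on log2(TPM + 1), 0.0449 with r on log2(TPM + 0.1) and -0.290 without cells of fewer than 5000 genes. The median over pairs was 0.0744 to 0.164 with single first title numbers left out, 0.186 and 0.2001 with r at pseudocounts of 1 and 0.1, and 0.0757 without cell 4-6, an alternative chosen after seeing the data. With r on log2(TPM + 0.1), 3 of the 6 negative genes turned positive, Esam to 0.0124, Icam2 to 0.0393 and Tjp1 to 0.0584. The cause was not tested, and of both r settings only that on log2(TPM + 1) was run without cell 4-6.

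No paired analysis was possible because all cells belong to 1 group. From TPM alone, missed transcripts and absent transcripts cannot be told apart, which bears most on Jam3 and Tjp1.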

Other observations

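Among all 9103 genes tested, those with the lowest rho with Runx1 were Eltd1 (-0.483, an adhesion receptor of endothelium now named Adgrl4), Ednrb (-0.455, an endothelin receptor), Lamb1 (-0.446, a laminin chain), Calcrl (-0.429, the receptor subunit for adrenomedullin) and App (-0.426). Each was lower than the lowest junction gene, Cdh5. Those with the highest rho were Txlna (0.630), Fut8 (0.571), Trim44 (0.559), Gpr56 (0.554) and Ttc39b (0.539).

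The junction genes were also set beside 3 lists of other genes, each taken as the mean log2(TPM + 1) of the list in a cell. With 12 endothelial genes, 0 of 10 members had a negative rho and the median was 0.324, led by Esam (0.458) and Pecam1 (0.424), while 39.5% of all tested genes were negative. Jam3 was lowest at 0.0285. With 12 genes of dividing cells, 7 of 10 were negative at a median of -0.0936, beside 37.5% of all tested genes. Cdh5 (-0.351), Esam (-0.294) and Icam2 (-0.229) were lowest there, and given the number of genes per cell Cdh5 was at -0.234. The mean of the dividing list had a rho of 0.388 with that number. With 14 blood genes, 5 of 10 were negative at a median of -0.0688, beside 45.9% of all tested genes, and Pecam1 was lowest at -0.248.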
